A study of Mus musculus with 12 samples.

Results

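The genes of cytosolic ribosomal proteins (RP genes) were examined for H3K27me3, the trimethylation of lysine 27 on histone H3 that Polycomb repressive complex 2 (PRC2) deposits. Members were the autosomal protein-coding genes of the GENCODE M1 annotation of mm9 with an Rpl or Rps symbol of the usual numbered form, plus Rplp0, Rplp1, Rplp2 and Rpsa, with pseudogenes left out. The rule found 78 of 21418 autosomal protein-coding genes. Of these, 42 encode proteins of the large subunit, 30 encode proteins of the small subunit and 6 are paralogs whose number is followed by l (Rpl3l, Rpl7l1, Rpl10l, Rpl22l1, Rpl39l and Rps27l).

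Ribosomal proteins assemble with ribosomal RNA into the large and the small subunit of the ribosome. Their genes are among the most strongly transcribed in growing cells, and many carry small nucleolar RNAs (snoRNAs) in their introns. H3K27me3 marks repressed chromatin, most often at developmental genes, and is laid down by PRC2 through Ezh2 or its paralog Ezh1.

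All libraries came from C2 iMEFs, mouse embryonic fibroblasts transformed with a c-Myc retrovirus and derived from a single clone by limiting dilution. Experiment 1 had 2 libraries of Ezh2 -/- cells (KO) and 2 of Ezh2 WT/WT cells (WT). Experiment 2 had 1 library of cells given retroviral Flag-Ezh1 before deletion (Ezh1 rescue), 1 of cells given Flag-Ezh2 in the same way (Ezh2 rescue), 2 of KO cells and 2 of WT cells. The study's methods describe a clone with 1 floxed and 1 deleted Ezh2 allele and a tamoxifen-activated Cre at ROSA26, so that "WT" stands for cells before deletion, and the labels give 4-hydroxytamoxifen for every sample without its dose per group. The study's figure legend names biological replicates for its H3K27me3 density plots, while the labels do not say whether replicates were separate cultures. If they were not, the spread between them is technical. The experiments differed in antibody, sequencing platform and read length (75 and 100 bp), whose effects cannot be told apart, and were not pooled.

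Each list gives the start and end of peaks and no height or score, so the values below are bases under peaks (bp) within 2500 bp on either side of the annotated 5' end of a gene, called its promoter here. They show where the mark was called and not how much of it was there. The paper reports that deleting Ezh2 drastically lowered H3K27me3, so a KO peak does not show more of the mark than in WT cells. Libraries were down-sampled to a common read number before calling, and the lists do not give the reads behind a single peak. The KO lists of Experiment 1 held 36477 and 55563 peaks over 24.3 and 56.7 Mb, and the WT lists 82566 and 82407 peaks over 141 and 177 Mb. In Experiment 2 the Ezh1 and Ezh2 rescue lists held 114211 and 64628 peaks, the KO lists 29 and 382, and the WT lists 18284 and 13417. In Experiment 1, none of 16 fibroblast marker genes had a promoter peak in both WT libraries. By comparison, 7 of 8 blood and 5 of 8 epithelial marker genes and 20.7% of all genes had one. The peak lists hold no measure of Ezh2 itself.

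The RP genes on which the results turn are shown first by their start regions. RefSeq promoters (GRCm38.p6) were found for 59 members, and 58 were located in mm9 by an exact match of their sequence. Each line below gives 50 bases before and 50 bases from the RefSeq start, 5′ to 3′ on the gene's strand. Capitals mark a run of at least 6 pyrimidines, counted from its first C, that opens fewer than 20 bases from the start. A run that opens the mRNA itself is the hallmark of the 5' terminal oligopyrimidine tract of RP mRNAs. The rule for capitals is looser, and not every marked run is such a tract. The marked run opens at 18 bases from the start in Rpl23 and at -12 in Rps27l. Rps12, Rpl23, Rpl12 and Rps9 had the most promoter bases under KO peaks, by the mean of Experiment 1, among members with a RefSeq promoter.
Rps12, chr10:23506966-23507065, minus strand: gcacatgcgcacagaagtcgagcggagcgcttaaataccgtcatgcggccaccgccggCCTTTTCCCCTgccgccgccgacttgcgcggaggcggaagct
Rpl23, chr11:97643704-97643803, minus strand: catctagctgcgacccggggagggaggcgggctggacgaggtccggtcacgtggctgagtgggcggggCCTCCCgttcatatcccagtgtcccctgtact
Rpl12, chr2:32817182-32817281, plus strand: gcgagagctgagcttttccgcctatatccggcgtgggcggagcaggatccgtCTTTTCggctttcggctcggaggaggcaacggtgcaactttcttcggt
Rps9, chr7:3655593-3655692, plus strand: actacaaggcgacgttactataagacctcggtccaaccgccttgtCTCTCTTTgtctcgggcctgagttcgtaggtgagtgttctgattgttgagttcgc

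Rpl13a and Rpl18 are shown because no library had a peak in their windows, which were set at the annotated 5' end.
Rpl13a, chr7:52384066-52384165, minus strand: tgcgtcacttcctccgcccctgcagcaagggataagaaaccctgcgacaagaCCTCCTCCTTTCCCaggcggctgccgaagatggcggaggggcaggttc
Rpl18, chr7:52973391-52973490, plus strand: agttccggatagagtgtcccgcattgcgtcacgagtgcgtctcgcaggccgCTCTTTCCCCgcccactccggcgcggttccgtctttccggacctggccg

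The paralogs Rpl3l, Rpl7l1 and Rps27l, chosen after their values were seen, had no peak in either KO library.
Rpl3l, chr17:24864721-24864820, plus strand: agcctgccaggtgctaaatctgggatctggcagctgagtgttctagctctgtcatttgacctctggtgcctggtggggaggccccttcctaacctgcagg
Rpl7l1, chr17:46919556-46919655, minus strand: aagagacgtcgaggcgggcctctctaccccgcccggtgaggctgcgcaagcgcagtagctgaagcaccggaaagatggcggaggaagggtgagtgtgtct
Rps27l, chr9:66793843-66793942, plus strand: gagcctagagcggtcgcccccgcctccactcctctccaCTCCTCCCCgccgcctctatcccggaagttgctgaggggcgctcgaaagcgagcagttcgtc

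Among the 72 RefSeq promoters of members, 61.1% had such a pyrimidine run, against 30.1% of all 32851 promoters in the table. The letters TTCCGG, the core of the ETS factor motif, stood in 48.6% of member promoters and in 14.9% of all promoters on either strand, from 250 bases before to 50 after the start. GGGCGG, the SP1 box, stood in 58.3% and 35.7%, AAGATGGC, a YY1 motif, in 11.1% and 2.75%, and the E-box CACGTG in 11.1% and 7.15%. TATAAA was less frequent in members, at 6.94% against 13.6%. None of these motifs contains another, and Rpl3l and Rpl7l1, shown above, had no pyrimidine run at the start.

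In Experiment 1, nearly all RP genes had an H3K27me3 peak at the promoter in KO cells and few had one in WT cells. A promoter peak was present in 72 and 70 of the 78 members in the KO libraries, where 7.26% and 8.37% of all autosomal genes had one. In the WT libraries 6 and 7 members had one, where 23.1% of all genes had one in each library. Thus RP genes exceeded the share of all genes in KO cells and lay below it in WT cells.

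**Figure D1:**
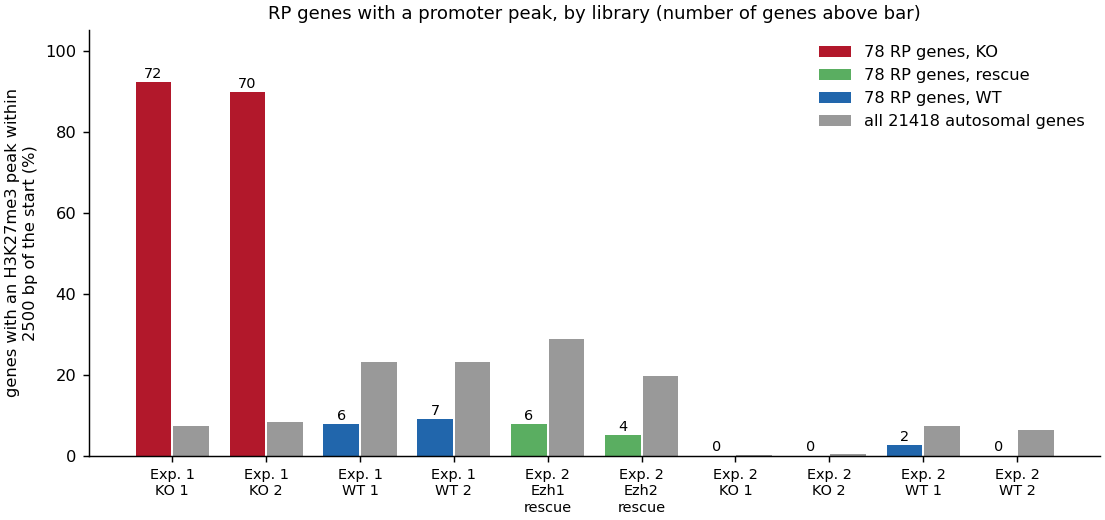
Share of genes (%) whose promoter window of 2500 bp on either side held an H3K27me3 peak, for the 78 RP genes (coloured bars, number of genes above each bar) and all 21418 autosomal protein-coding genes (grey bars), in each of the 10 libraries. The KO libraries of Experiment 1 stand out with 72 and 70 RP genes, and no other library had more than 7.

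Peaks were reproduced in the KO replicates. Both KO libraries had a promoter peak in 69 members, or 88.5%, against 4.65% of all genes, and members made up 6.93% of all genes so called. Both WT libraries had one in 6 members, against 20.7% of all genes. In 67 members both KO libraries exceeded both WT libraries, against 3.91% of all genes, and in 63 members both KO libraries and neither WT library had a peak, against 3.69%. Only Rpl3l and Rpl38 had fewer bases under peaks in both KO libraries than in both WT libraries, against 20.1% of all genes. With 2 libraries against 2, the exact permutation test cannot go below a two-sided p of 0.33, which these 69 members reached, so that the comparison rests on groups that do not overlap. When only peaks of at least 1000 bp were kept, the members higher in KO numbered 23, against 1% of all genes, and those with a peak in both KO libraries 25, against 1.18%.

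Promoter bases under KO peaks were shared by the 2 KO libraries more often at RP genes than over all genes. Of member promoter bases under a peak in either KO library, 68.1% were under a peak in both, against 26.1% for all genes. In WT libraries the shares were 53.2% for members and 67.6% for all genes. These shares count windows with a peak in only 1 library as well. Over all genes, 1556 and 1792 had a KO peak and 995 had one in both libraries. Among members these numbers were 72, 70 and 69. Across the 78 members, KO library 1 and KO library 2 had a Pearson correlation of 0.758 and a Spearman correlation of 0.715 in promoter bp, given as a description since genes are not independent replicates and the libraries share a clone.

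The median member had 849 and 982 bp under peaks in the KO libraries and 0 bp in both WT libraries, while the median over all genes was 0 bp in each. Among genes with a KO peak the medians were 880.5 and 1030.5 bp for members, against 518 and 716.5 bp for all such genes. The median marked member thus had more bases under peaks than the median marked gene, yet members were not at the top of the ranking. None was among the first 50 genes ranked by mean KO bp, 1 was among the first 100, 35 among the first 500 and 62 among the first 1000.

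**Figure D2:**
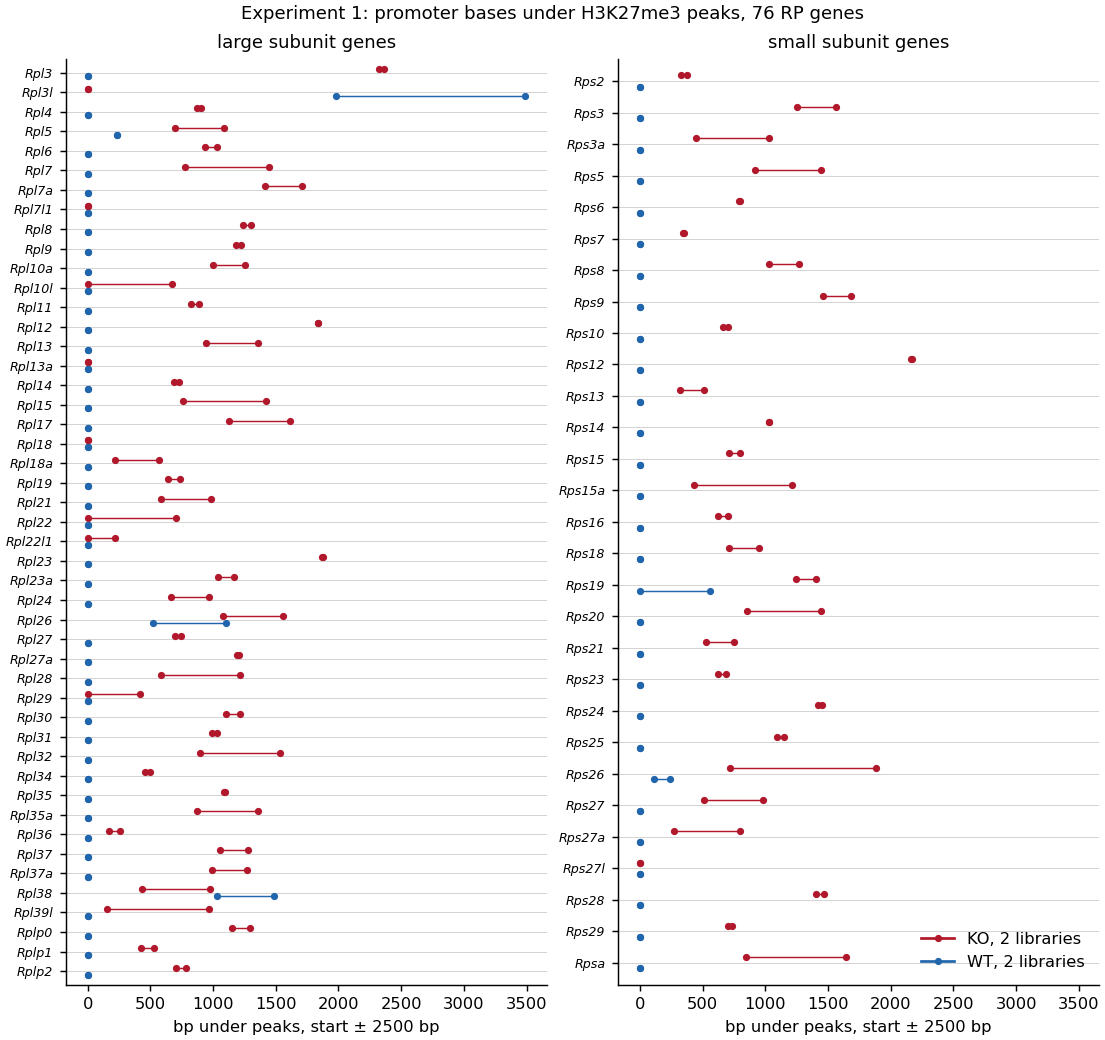
Bases under H3K27me3 peaks within 2500 bp of the start of 76 RP genes in Experiment 1. Each point is 1 library, lines join the 2 libraries of a group (KO above WT on each row), and KO points lie right of the WT points in 65 of these 76 genes, with Rpl3l and Rpl38 reversed.

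The large-subunit genes, paralogs left out, had a median of 880.5 bp (range 0 to 2322) in KO library 1 and 1058 bp (0 to 2364) in KO library 2. The highest value was that of Rpl3, whose protein reaches towards the peptidyl transferase centre, with 2322 and 2364 bp in KO cells and 0 bp in both WT libraries, rank 91 of all genes. Rpl23, at the interface of the subunits, had 1874 and 1867 bp in KO cells and 0 bp in both WT libraries. Rpl12, a protein of the stalk base, had 1836 and 1833 bp in KO cells and 0 bp in both WT libraries. Within the window these KO replicates differed by less than 50 bp per gene. At Rpl3 and Rpl12 part of this closeness came from the window edge, beyond which their peaks ended. The whole KO peaks were 2446 and 3211 bp wide at Rpl3 and 1868 and 2085 bp wide at Rpl12.

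Rpl7a, a host of 4 annotated snoRNAs, had 1711 and 1415 bp in KO cells and 0 bp in both WT libraries. Rpl17, which lines the exit tunnel for the nascent chain, had 1128 and 1611 bp in KO cells and 0 bp in both WT libraries. The replicates of these genes were farther apart, yet remained well above WT.

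The small-subunit genes, paralogs left out, had a peak in both KO libraries in 30 of 30 members, with medians of 885 bp (318 to 2163) and 888 bp (269 to 2169). Rps12 had the highest value, with 2163 and 2169 bp in KO cells and 0 bp in both WT libraries. Here too the window edge cut both KO peaks, which were 2187 and 2338 bp wide. Rps9, a protein of the mRNA entry side, had 1681 and 1457 bp in KO cells and 0 bp in both WT libraries. Rps24, whose human counterpart is mutated in Diamond-Blackfan anaemia, had 1449 and 1418 bp in KO cells and 0 bp in both WT libraries. Every one of these genes was without a WT peak in both libraries.

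Rps28 had 1400 and 1465 bp in KO cells and 0 bp in both WT libraries. Rps3, at the mRNA entry channel, had 1255 and 1566 bp in KO cells and 0 bp in both WT libraries. Neither gene had overlapping groups. The lowest mean among members with a peak in both KO libraries was that of Rpl36, with 255 and 167 bp in KO cells and 0 bp in WT cells.

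The stalk, which recruits elongation factors to the ribosome, is built on Rplp0 with Rplp1 and Rplp2. In KO libraries Rplp0 had 1298 and 1149 bp, Rplp1 425 and 526 bp, and Rplp2 783 and 707 bp, all against 0 bp in both WT libraries. Rpsa, also known as the laminin receptor, had 845 and 1643 bp in KO cells and 0 bp in WT cells. All of these genes had a peak in both KO libraries, and Rplp1 and Rplp2 lay below the large-subunit medians in both.

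Of the 6 paralogs, 2 had a peak in KO library 1 and 2 in KO library 2. Only Rpl39l, a paralog of germ cells, had one in both, with 151 and 968 bp in KO cells and 0 bp in WT cells. The 968 bp joined an upstream peak, from -2725 to -1917 bp, with a 384-bp peak downstream. KO library 1 had no upstream peak there. Rpl22l1 had 221 and 0 bp in KO cells, and Rpl10l, expressed in testis, had 0 and 669 bp, both with 0 bp in WT cells. Rpl7l1 and Rps27l, a target of p53 in human cells, had 0 bp in all 10 libraries. Of the genes they are named after, Rpl3, Rpl7 (780 and 1445 bp), Rps27 (507 and 984 bp) and the X-linked Rpl10 (930 and 1116 bp) and Rpl39 (1124 and 1555 bp) had peaks in both KO libraries, while Rpl22 (708 and 0 bp) had one in KO library 1 alone, as did Rpl22l1. All of these had 0 bp in WT cells.

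Apart from the paralogs, 4 members lacked a peak in both KO libraries. Rpl22 had 708 and 0 bp in KO cells and Rpl29 had 419 and 0 bp, with 0 bp in WT cells for both. Rpl13a and Rpl18 had 0 bp in every library in the window at the annotated 5' end. Their RefSeq starts lie 7672 and 2614 bp downstream of the annotated 5' end, and around the RefSeq start Rpl13a had 1869 and 1317 bp and Rpl18 811 and 752 bp in KO cells, against 0 bp in WT cells. Measured at any annotated transcript start, 69 members were higher in KO, against 4.34% of all genes.

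The KO peaks lay mostly inside the genes and not over their starts. Some peaks ran past the end of short genes. At Rpl36, 849 bp long, they ran from 838 to 1092 and from 908 to 1074 bp. The Rpl10l peak of KO library 2, from 1068 to 1736 bp, lay past its 1021-bp gene. A peak downstream of the annotated start was found in 72 and 70 members, and only downstream in 71 and 69. Over that start itself one was found in 0 and 0. The edge nearest the start lay at a median of 531 bp (122 to 1798) and 580 bp (137 to 1835) downstream. The 1798 and 1835 bp were those of Rps10, whose RefSeq start lies 1385 bp downstream of its annotated 5' end. The first downstream peak had a median width of 888 and 1031 bp. From the RefSeq starts printed above, the KO peaks of Rps12 ran from 338 to 2524 bp and from 332 to 2669 bp, those of Rpl12 from 512 to 2379 bp and from 515 to 2599 bp, and those of Rps9 from 74 to 1511 bp and from 90 to 1546 bp.

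**Figure D3:**
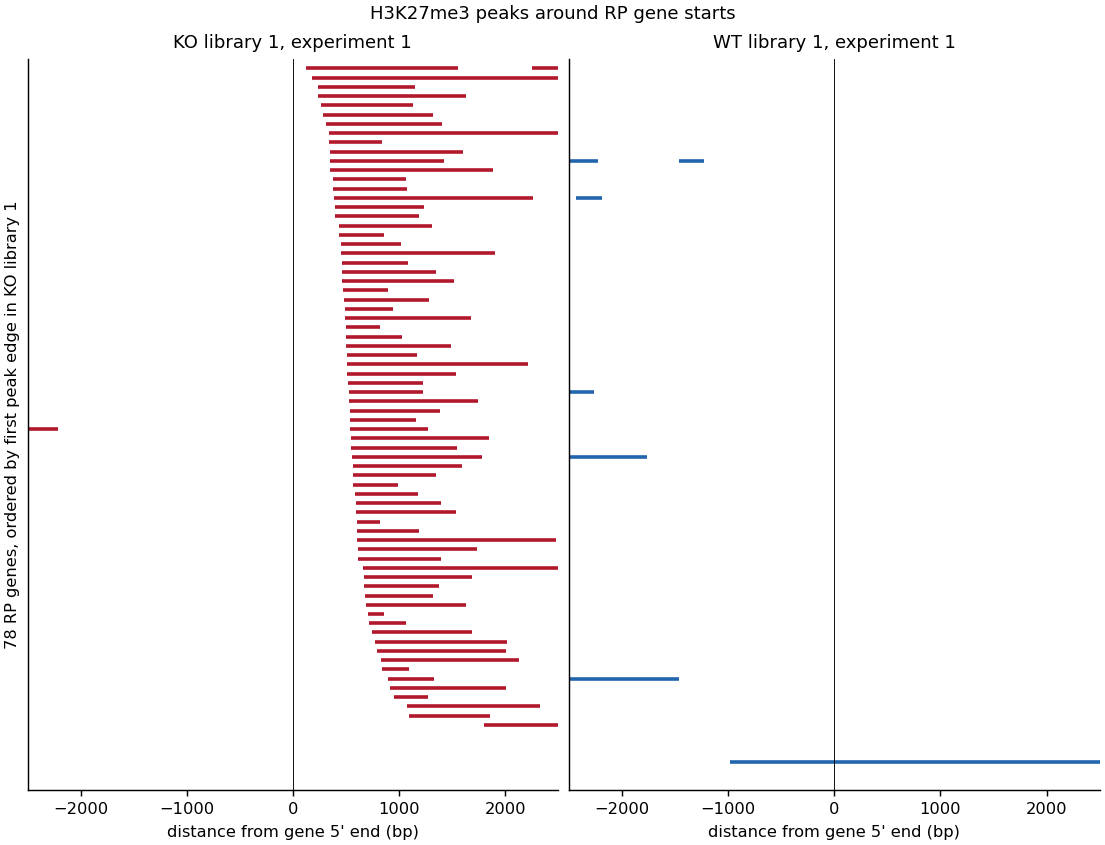
Position of H3K27me3 peaks within 2500 bp of the start (distance from the gene's 5' end in bp, negative is upstream) in KO library 1 and WT library 1 of Experiment 1, 1 row per RP gene. The first KO peaks downstream begin between 122 and 1798 bp, and none crosses the start. In KO library 1, 1 gene has an upstream peak, whereas 5 of the 6 genes marked in WT library 1 have peaks only upstream.

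Over all members, bases 500 to 999 bp downstream were under KO peaks at 72% and 65.6%, and bases 1000 to 1499 bp downstream at 58.6% and 67.6%. The same bands held 1.73% and 2.09%, and 1.62% and 2.52%, of the bases of all genes. From 1000 bp upstream to the annotated start, 0% of member bases were under peaks in each KO library. The shares for all genes were 0.796% and 1.61%. The RefSeq start of Rps2 lies 1947 bp downstream of its annotated 5' end. Its counted KO peaks, at 950 to 1275 and 1011 to 1387 bp from that end, lay upstream of the RefSeq start. In WT libraries no band from 1000 bp upstream to 2500 bp downstream exceeded 1.28% in members.

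The shape was also compared with the 926 other genes that had a promoter peak in both KO libraries. In those, 14.1% and 24.5% of the bases in the 1000 bp upstream of the annotated start were under peaks. The 69 called members had 0% and 0% there. At 500 to 999 bp downstream the other genes had 20.9% and 30.6%, against 78.6% and 74.2% for the members. Members peaked in the bin of 800 to 899 bp in KO library 1 (80%) and of 900 to 999 bp in KO library 2 (79.3%).

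**Figure D4:**
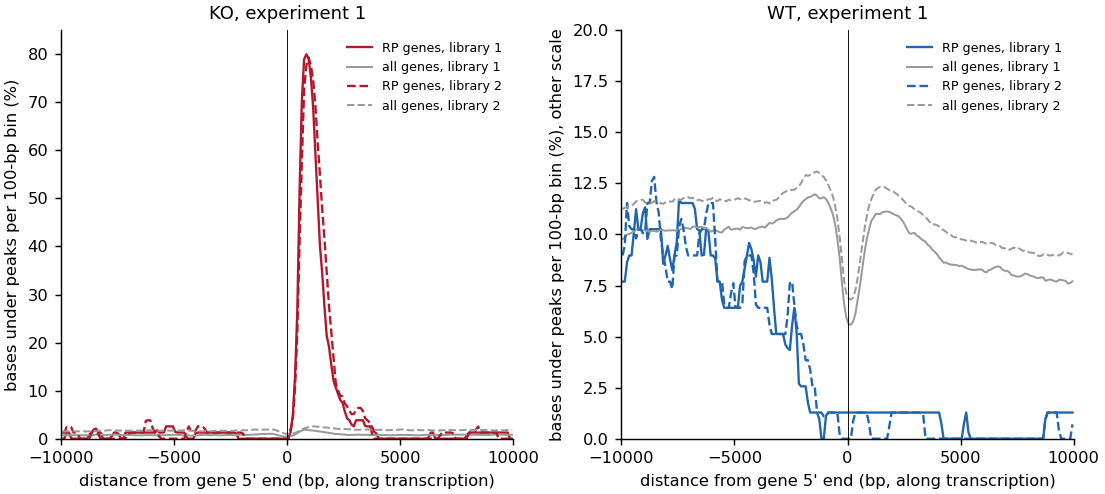
Percent of bases under H3K27me3 peaks in 100-bp bins from 10000 bp upstream to 10000 bp downstream of the gene's 5' end in Experiment 1, for RP genes (coloured) and all autosomal genes (grey), with KO on the left and WT on the right (on a smaller scale). RP genes reach 80% and 79.3% in the 2 KO libraries downstream of the start, and in WT libraries they stay below all genes near the start.

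Across whole gene bodies, a median of 25.4% and 26.9% of member length was under KO peaks, with a peak in 74 and 70 members, and 0% under WT peaks, with a peak in 1 member (Rpl3l) in each library. In KO libraries 12.4% and 13.8% of all genes had a peak in the body, and in WT libraries 24.5% and 24.4%. Exon bases of members were under KO peaks at 22.2% and 23.2%, and intron bases at 18.7% and 20.1%. For the 18 members of at least 5000 bp the medians were 15.9% and 13.4%. RP genes have many processed pseudogene copies, and reads that match several places were not kept in Experiment 1. The effect of this on the peaks was not tested.

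Few RP genes were marked in WT or rescue cells, and except at Rpl3l these peaks lay only upstream of the start. Rpl3l, the paralog of striated muscle, had 0 and 0 bp in KO cells, against 3489 and 1982 bp in WT cells of Experiment 1. In Experiment 2 it had 3624 bp in the Ezh1 rescue, 1824 bp in the Ezh2 rescue, 0 bp in both KO libraries and 550 and 0 bp in WT libraries. It was the only member with a WT or rescue peak in the gene body, and the 5146-bp peak of WT library 1 ran from -988 to 4157 bp relative to the start.

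Rpl38, which in mouse embryos is needed for the translation of Hox mRNAs, had 437 and 974 bp in KO cells, against 1032 and 1485 bp in WT cells. In Experiment 2 it had 1913 bp in the Ezh1 rescue, 1013 bp in the Ezh2 rescue, 0 bp in both KO libraries and 963 and 0 bp in WT libraries. Its WT peaks in Experiment 1 ended at -1469 and -1016 bp relative to the start, so the lower KO value compares peaks in different places.

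Rpl26 had 1076 and 1558 bp in KO cells, against 518 and 1105 bp in WT cells, with overlapping groups, and 1600 bp in the Ezh1 rescue. Rps26 had 1882 and 720 bp in KO cells, against 243 and 110 bp in WT cells, and 362 bp in the Ezh1 rescue. These genes therefore had upstream bases in WT cells and downstream bases in KO cells.

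Rpl5, which with Rpl11 and 5S ribosomal RNA binds Mdm2, had 696 and 1087 bp in KO cells. In WT cells Rpl5 had 233 and 233 bp. Both WT peaks, 272 and 1477 bp wide, were cut by the upstream window edge. Rps19, the gene most often mutated in human Diamond-Blackfan anaemia, had 1247 and 1403 bp in KO cells, against 0 and 560 bp in WT cells, and 950 bp in the Ezh1 rescue. Rps3 had 648 bp in the Ezh1 rescue and Rpl29 had 650 bp in the Ezh2 rescue, both upstream of the start and both with 0 bp in WT libraries.

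In Experiment 2 the KO pattern of Experiment 1 was not present. None of 78 members had a promoter peak in either KO library, where 0.042% and 0.392% of all genes had one, and 2 and 0 members had one in the WT libraries, where 7.35% and 6.33% of all genes did. No member had one in both WT libraries, against 3.24% of all genes. No member was higher in both KO libraries, against 0.0233% of all genes, or lower in both, against 3.16%. Without WT replicate 2, 2 members (Rpl3l and Rpl38) were lower in KO. Since 29 and 382 peaks were called in the KO libraries, few genes could be higher in KO.

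The Ezh1 rescue had a peak at 6 members, where 28.8% of all genes had one, and the Ezh2 rescue at 4, where 19.6% did. Only Rpl3l and Rpl38 were marked in both. Each rescue was a single library and its difference from KO or WT has no replicate check. Neither rescue had a peak downstream of the start of a member other than Rpl3l.

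Genes of the wider translation machinery were counted in the same way in Experiment 1. Of 73 mitochondrial ribosomal protein genes, whose products form the separate ribosome of mitochondria, 3 (4.11%) had a promoter peak in both KO libraries and 4 (5.48%) in both WT libraries, against 4.65% and 20.7% of all genes. The KO cases were Mrpl18 (896 and 864 bp), Mrpl49 (943 and 746 bp) and Mrpl12 (883 and 348 bp), each with 0 bp in WT cells. The bases counted at Mrpl49 were the same as at its neighbour Fau, which encodes a small-subunit protein.

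Of 28 autosomal translation initiation factors, 9 had a peak in both KO libraries and 1 in both WT libraries. They were taken by their Eif symbols, and Eif5a was among the 9. The RNA helicase gene Eif4a2 had 1738 and 1508 bp in KO cells, Eif1, which acts in start codon selection, 1561 and 1621 bp, and Eif4a1 712 and 736 bp, all against 0 bp in WT cells. Of 13 genes listed under elongation and termination, 6 had a peak in both KO libraries and 0 in both WT libraries. The list was broad and also held Naca, Btf3, Pabpc1, Tpt1 and Eef1e1, and Naca and Pabpc1 were among the 6. Among them were Eef1g with 1348 and 1136 bp, Eef2, which drives translocation, with 996 and 1255 bp, and Eef1b2 with 760 and 848 bp in KO cells, all against 0 bp in WT cells.

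Of 34 autosomal ribosome biogenesis factors, 11 had a peak in both KO libraries and 1 in both WT libraries. The nucleolar protein gene Npm1 had 1633 and 1555 bp, Nop58, of the box C/D snoRNPs, 1364 and 1349 bp, and Utp3 1459 and 975 bp in KO cells, against 0 bp in WT cells. Of 14 genes of RNA polymerase I and its factors, 2 had a peak in both KO libraries and 1 in both WT libraries. These were Taf1d (1063 and 1757 bp) and Rrn3 (557 and 927 bp) in KO cells, with 0 bp in WT cells. The shares in these lists were 32.1% for initiation, 46.2% for elongation and termination, 32.4% for biogenesis and 14.3% for polymerase I, against 88.5% for RP genes.

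**Figure D5:**
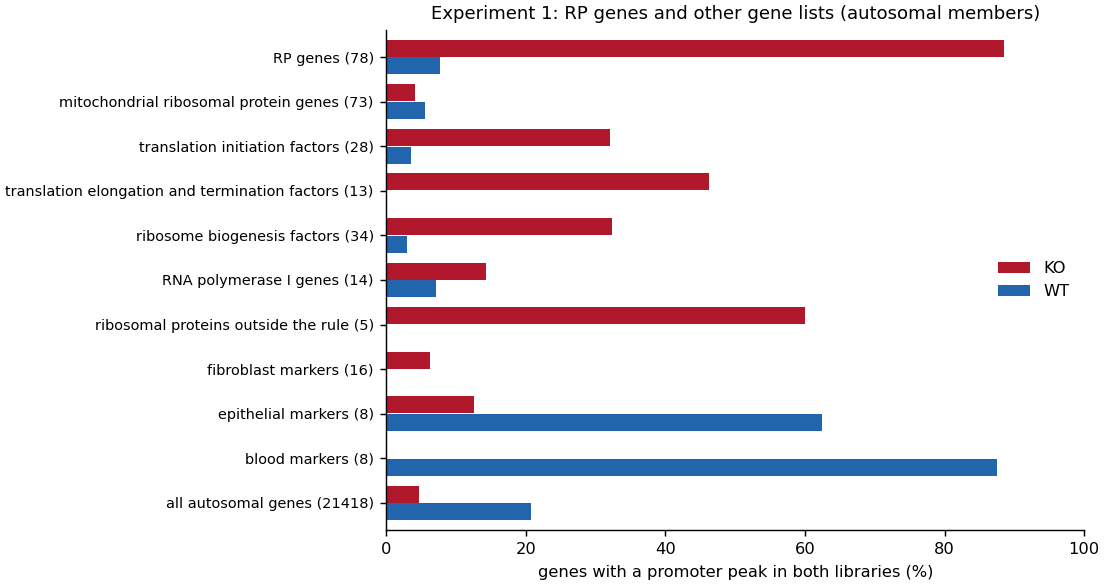
Percent of the autosomal members of each list (number in brackets) with a promoter peak in both KO libraries (upper bar) and both WT libraries (lower bar) of Experiment 1. RP genes stand at 88.5% in KO cells, mitochondrial ribosomal protein genes at 4.11%, close to all genes at 4.65%.

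Base composition and snoRNAs were features the rule did not use. The 5001-bp windows of members had a median GC content of 48.1%, against 47.4% for all genes, and a median CpG observed over expected ratio of 0.451, against 0.343. Of 1344 other genes inside the members' interquartile ranges for both, 53 (3.94%) had a peak in both KO libraries, as against 4.34% of all other genes. Of the members, 28 had an annotated snoRNA gene inside and a median of 1148 bp in KO cells (mean of the libraries), against 805 bp in the other 50, and 27 and 42 of them had a peak in both KO libraries. All 6 paralogs were without a snoRNA gene, and without them the second class had a median of 843 bp and a peak in both KO libraries in 41 of 44 members (93.2%), against 96.4% of the hosts. Among genes outside the set, 37 of 225 snoRNA hosts (16.4%) and 4.21% of the rest had a peak in both. Gene length had a Pearson correlation of -0.0673 and a Spearman correlation of 0.0617 with mean KO bp over the 78 members, as a description.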

How the data were processed

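Peak lists of 10 H3K27me3 ChIP-seq libraries entered the counts, and the 2 input samples without antibody were not analysed here. The authors digested chromatin with micrococcal nuclease, aligned reads to mm9 (Bowtie 0.12.8 and Bowtie2 2.1.0, per the labels' processing notes), removed duplicates with SAMtools, down-sampled and called peaks per sample against input with MACS2 2.0.10. HOMER 3.17 is also named. The methods scale KO and Ezh1 rescue signal down by coefficients taken from the amount of immunoprecipitated DNA. The deposited lists do not show whether this scaling was applied. The deposited values are peak positions (chromosome, start, end), with no score, count or p-value.

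Peaks were merged, the mitochondrial genome was left out, and bases under peaks were counted within 2500 bp of the 5' end of each gene in GENCODE M1. A peak meant at least 1 bp. KO and WT were compared by whether the libraries overlapped and by an exact permutation test. Members and lists were chosen with earlier results of these data known. The genes named are the 10 with most bases under KO peaks and peaks in both libraries, members marked in WT, rescue or Experiment 2 KO libraries, the stalk genes, Rpsa and the paralogs, and up to 3 genes per list. Others (Rpl7, Rpl13a, Rpl18, Rpl22, Rpl36, Rps2, Rps10, Rps27, Fau, Gnb2l1, the X-linked genes and single marker genes) were chosen after their values were seen. Eif5a, Eef1e1, Naca, Btf3, Pabpc1 and Tpt1 were named later to show what their lists held. The values of 2 members and of 1 other gene are counted but not reported singly here. Of 10 names of ribosomal proteins outside the rule, with the biogenesis protein Rsl24d1 among them, 9 were found, and of 15 polymerase I names 14. Counts were repeated with other windows, starts, peak widths and minimum overlaps, joined peaks, and without paralogs, chromosome 5 or each replicate in turn. Tested on simulated data, the coverage code gave 0 mismatches in 8000 windows. Python 3.11.15, NumPy 2.4.6, SciPy 1.17.1 and matplotlib 3.10.9 were used.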

Additional observations from a re-analysis of the deposited data

How the results depend on the processing

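Of 136 recomputed values, 111 stayed within 1.5 times the value reported and 25 did not. With promoters of 1000 bp on either side, members lower in KO in Experiment 1 numbered 1, members with an Ezh1 rescue peak 3, members with an Ezh2 rescue peak 1, and members with a peak in both WT libraries of Experiment 1 likewise 1. In the same window both KO libraries had a peak at 5 initiation factors and 1 polymerase I gene, and both WT libraries at 0 mitochondrial ribosomal protein, 0 initiation, 0 biogenesis and 0 polymerase I genes. With 5000 bp, 4 members were lower in KO in Experiment 1 and 1 in Experiment 2, the Ezh1 rescue had 11 members with a peak and the Ezh2 rescue 7, and both WT libraries had 10 in Experiment 1 and 1 in Experiment 2. Keeping peaks of at least 550 bp left 3 members with a peak in both WT libraries of Experiment 1. Keeping peaks of at least 1000 bp left 23 members higher in KO, 25 with a peak in both KO libraries, 3 in both WT libraries and 2 in the Ezh2 rescue. Without the paralogs, 1 member was lower in KO. The median share of gene length under KO peaks, averaged over the libraries at 26.1%, was 14.7% for genes of at least 5000 bp. Shares over all genes were computed again only for peaks of at least 1000 bp and for any annotated transcript start. The counts at other windows and widths therefore have no share of all genes to be read against. Fewer or more bases were counted by construction under these settings, and no other cause was tested.

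Leaving out 1 replicate at a time gave 67 to 70 members higher in KO and 2 to 2 lower in Experiment 1, and 0 to 2 lower in Experiment 2, where without WT replicate 2 there were 2. Members with a peak in the remaining library numbered 70 to 72 for KO and 6 to 7 for WT in Experiment 1, and 0 to 2 for WT in Experiment 2. Replicate numbers are shared by KO and WT, but nothing says that they pair samples, and deviations of same-numbered libraries correlated at 0.034 and -0.028. With the replicate block (same sign in both numbered pairs), 68 members were higher and 2 lower in KO in Experiment 1, and 0 and 0 in Experiment 2. With RefSeq starts, chosen after seeing the data, 50 of 58 members were higher in KO, against 48 of the same 58 at the annotated 5' end. With autosomal RP genes outside the rule and Rsl24d1 added, also chosen after seeing the data, the number was 70. The lists limit what can be seen to called peaks.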

Other observations

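Several RP genes that the rule left out had KO peaks in Experiment 1 as well. Of the 5 autosomal genes matched, Rsl24d1 among them, 3 had a promoter peak in both KO libraries, against 4.65% of all genes. In both WT libraries 0 had one, against 20.7%. Gnb2l1, which encodes the small-subunit scaffold protein Rack1, had 1455 and 1379 bp in KO cells, and Fau 943 and 746 bp, both against 0 bp in WT cells. Rpl36al had 0 bp in all 10 libraries, and Rsl24d1, a ribosome biogenesis protein, had 252 and 0 bp in KO cells, against 0 and 475 bp in WT cells.

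On the X chromosome, 5 of 932 protein-coding genes (0.536%) had a promoter peak in both KO libraries, and 4 of them were ribosomal protein genes. Rps4x had 1942 and 1513 bp in KO cells, Rpl39 1124 and 1555 bp, Rpl10 930 and 1116 bp and Rpl36a 393 and 150 bp, all against 0 bp in WT cells. The other gene was Rbm3, an RNA-binding protein gene induced by cold. In WT cells 80 of the X-linked genes (8.58%) had a promoter peak in both libraries.

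Of 16 fibroblast marker genes, Vim was the only one with a promoter peak in both KO libraries. This share of 6.25% was close to the 4.65% of all genes. Vim, which encodes vimentin, had 1698 and 1275 bp in KO cells, against 0 bp in WT cells. Of 8 epithelial marker genes, 0 were higher and 4 lower in both KO than in both WT libraries, against 3.91% and 20.1% of all genes. Among those lower was Esrp1 with 0 and 0 bp in KO cells, against 3914 and 3964 bp in WT cells. Krt14 alone had a peak in both KO libraries, with 1498 and 4662 bp in KO cells, against 1197 and 2717 bp in WT cells, and its groups overlapped. Of 8 blood marker genes, 0 had a peak in either KO library, where 7.26% and 8.37% of all genes had one. In both KO libraries 7 of the 8 were lower than in both WT libraries, against 20.1% of all genes.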
